A study of Mus musculus with 6 samples.

Results

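Pax7, Pax3, Myf5 and Myf6 are the transcription factors that place a cell in the skeletal muscle lineage, and their RNA was described in cultured mouse muscle-derived stem/progenitor cells (MDSPCs). They are 4 of the 21485 genes that all 6 deposited count matrices share. The genes were chosen by measured values, namely their CPM and shares of cells in these matrices, in which Pax7 was nearly missing from one population and Myf5 from another. Their levels, their shares of cells and their co-detection are therefore given as a description, and tests were kept for other genes.

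Young mice gave 3 of the MDSPC populations and old mice the other 3, called young 1 to 3 and old 1 to 3 after the biological replicate number of the labels. MDSPCs are slowly adhering cells that were enriched from digested skeletal muscle by repeated transfer of the cells that had not yet attached. All 6 populations were expanded in proliferation medium, with no other treatment named, and 1 droplet-based 3′ single-cell RNA library was made from each. The age, sex, strain and genotype of the mice, and how many mice gave each population, are not given in the sources used here.

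Pax7 and Pax3 are paired-box and homeobox proteins that arose from a common ancestral gene. Pax7 marks the satellite cells of adult muscle, and Pax3 acts in the embryonic muscle precursors of trunk and limb and is kept in some adult muscles. Both are known to switch on Myf5, a basic helix-loop-helix (bHLH) factor of early commitment, whose close relatives are Myod1, Myog (myogenin, the factor of differentiation) and Myf6 (also called MRF4), which is found mainly in differentiated muscle.

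The members of each pair resemble each other, so it matters whether a read can be told apart between them. Sequenced reads were 90 bases long. The longest run of identical bases between annotated transcripts of Pax7 and Pax3 was 26 bases, and between Myf5 and Myf6 it was 14 bases, both shorter than a read. The 90-base windows centred on those runs are shown, with the identical run in capitals. The 90-base stretch with the fewest differences was not searched for. All are coding sequence, written 5′ to 3′ from the GENCODE M21 transcripts of the GRCm38 genome.
Pax7: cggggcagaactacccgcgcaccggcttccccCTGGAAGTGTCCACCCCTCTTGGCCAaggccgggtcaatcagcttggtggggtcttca
Pax3: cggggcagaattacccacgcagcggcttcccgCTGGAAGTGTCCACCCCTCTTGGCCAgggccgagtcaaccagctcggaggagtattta
Myf5: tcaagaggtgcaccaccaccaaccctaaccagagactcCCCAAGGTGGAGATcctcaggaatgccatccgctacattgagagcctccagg
Myf6: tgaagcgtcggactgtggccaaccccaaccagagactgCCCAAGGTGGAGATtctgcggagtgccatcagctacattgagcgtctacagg
The Pax windows differed at 12 of 90 bases and the Myf windows at 20. The capital run ended 5133 bases from the 3′ end of the Pax7 transcript and 2885 from that of Pax3. For Myf5 and Myf6 these distances were 1512 and 832 bases, while the library chemistry reads near the 3′ end.

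In the GRCm38 annotation, Pax7 lies at chr4:139737062-139833528 and Pax3 at chr1:78101267-78197134, each spanning close to 96 kb (96467 and 95868 bases) on the minus strand. Myf5 (chr10:107482908-107486134) and Myf6 (chr10:107492853-107494737) are short neighbours on the minus strand of chromosome 10, with 6718 bases between them.

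After removal of shallow barcodes and of those rich in mitochondrial RNA, 61673 of 62849 barcodes were kept as cells, between 8674 and 12541 a population. Deposited totals lay between 133974782 and 196481316 unique molecular identifiers (UMIs, the tags that count each captured RNA molecule once). Young 1 and old 1 were counted on a shorter gene list with an earlier program version, and the other 4 populations on a longer one. Myogenic markers were present in all 6 populations: at least 7 of 8 reached a level of 1 CPM (counts-per-million, the UMIs of a gene scaled to a common total), the exceptions being Pax7 in young 3 and Myf5 in young 1, which are themselves in that list. Their summed level was 211 to 332 CPM in young 1, young 3 and old 1 and 1709 to 3456 CPM in the other 3. Markers of other cell types were mixed. Ptprc (immune, at most 0.0529 CPM), Cdh5 (endothelial, 0.304), Lum (fibro-adipogenic, 0.00547), Sox10 (Schwann and neural crest, where Pax3 is also used, 0.0198) and Kcnj8 (pericyte, 0.033 CPM) were at or near 0 in all 6. Other genes of the same lists were not: Notch3 reached 68.3, Cspg4 17.8, Rgs5 10.3 and Pdgfrb 4.32 CPM in the smooth muscle and pericyte list, Erbb3 16.3 and Mitf 9.35 CPM in the Schwann and neural crest list, and Csf1r 3.14 CPM in the immune list. In the fibro-adipogenic list Gsn stood at 149 to 317 CPM, Col3a1 at 13.3 to 132 CPM and Smoc2 at 1.12 to 103 CPM. The summed level was 14.6 to 92.3 CPM for the pericyte list, 5.19 to 26.2 for the Schwann list, 0.466 to 3.69 for the immune list, 0.479 to 1.37 for the endothelial list and 206 to 434 CPM for the fibro-adipogenic list. The part of such cells in the results was not tested. Any pair of libraries shared between 23 and 35 cell barcodes, at most 0.369% of the smaller library.

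Pax7 ranged from near absence in young 3 to its highest level in young 2. It stood at 9.93 CPM in young 1, 55.3 in young 2 and 0.0265 in young 3, and at 12.3 in old 1, 22.6 in old 2 and 33.55 in old 3. Young 3 held 5 Pax7 UMIs among 10780 cells (95% Poisson interval 0.0086 to 0.0618 CPM), where young 2 held 10686. The young populations thus sat at both ends of the order, with the 3 old ones between young 1 and young 2.

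Pax3 had nearly the reverse order at its ends. It stood at 12.6 CPM in young 1, 0.264 in young 2 and 51.6 in young 3, and at 26.5, 15.5 and 17.7 CPM in old 1, old 2 and old 3. Young 2, the population with the most Pax7, held 51 Pax3 UMIs, and young 3, the population without Pax7, held 9739. The counting intervals of neighbours in the order did not overlap for Pax7 or Pax3. These intervals cover counting error only, and the spread of a population over repeated cultures is not measured here.

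**Figure D1:**
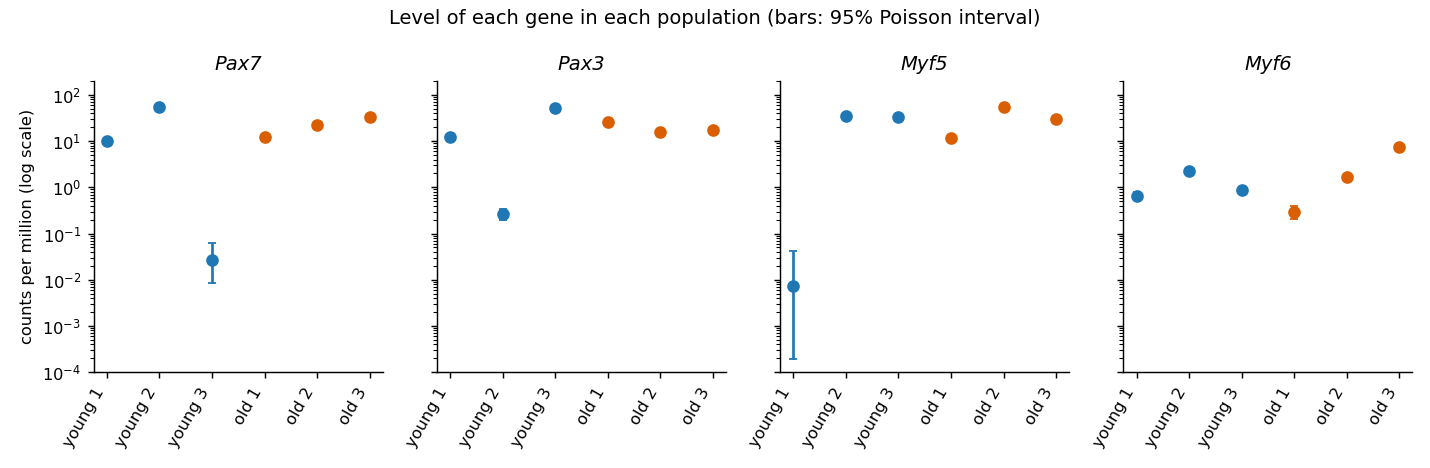
Level of Pax7, Pax3, Myf5 and Myf6 in CPM (log axis) in each of the 6 populations, young in blue and old in orange, with the 95% Poisson interval of the count. Pax7 drops to 0.0265 in young 3, Myf5 to 0.00749 in young 1 and Pax3 to 0.264 in young 2, and Myf6 stays under 8 in every population.

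In young 3, where Pax7 was missing, Pax3 ranked 1st of 6. Its 51.6 CPM was 1.95 times the next highest population and 3.34 times the median of the other 5. Being the highest of 6 in young 3 was not rare: 25.3% of the 7978 genes with a mean of 10 CPM or more had their highest level there. Myf5 ranked 3rd in young 3 at 33.3 CPM, and Myf6 ranked 4th at 0.874 CPM. Myod1 ranked 6th of 6 there at 45.7 CPM, 0.0997 times the median of the other 5. Myog ranked 4th at 34.8 CPM, 0.196 times that median. The sum of Pax7 and Pax3 varied less than either gene, by 2.47-fold across the 6 populations against 195.5-fold for Pax3 and 2087-fold for Pax7. Without its own lowest population, Pax3 spanned 4.10-fold (without young 2) and Pax7 5.56-fold (without young 3). The summed level was 22.5 CPM in young 1, 55.5 in young 2, 51.6 in young 3, 38.8 in old 1, 38.1 in old 2 and 51.3 in old 3. Pax3 made up 99.95% of that sum in young 3, 0.475% in young 2 and between 34.55% and 68.3% in the other 4. Among those 4, Pax3 did not follow Pax7 in either direction: young 1, with the least Pax7 of them, also had the least Pax3.

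**Figure D2:**
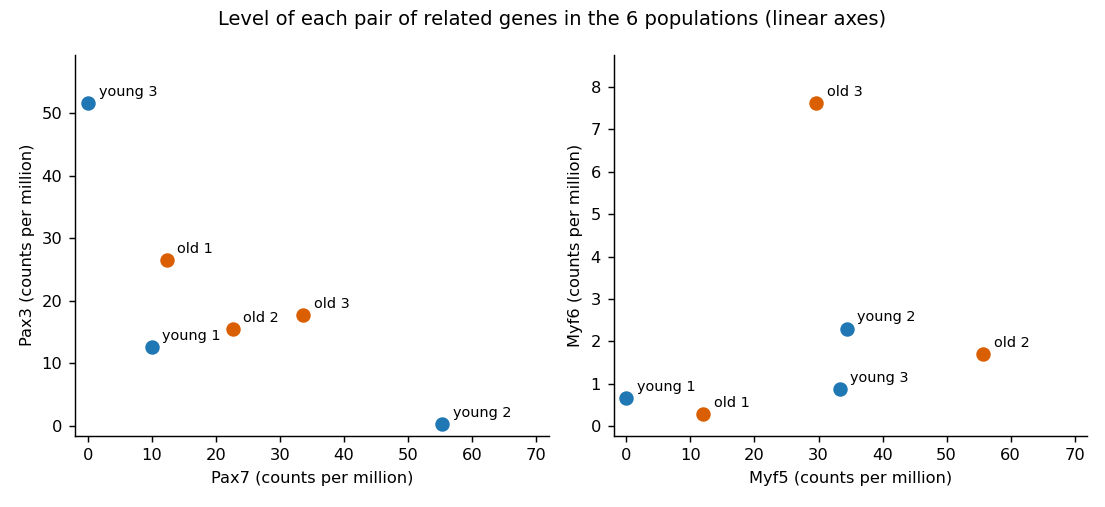
Pax3 against Pax7 (left) and Myf6 against Myf5 (right), both in CPM on linear axes, 1 point per population. Young 3 and young 2 take opposite corners of the Pax plot, at 51.6 Pax3 with 0.0265 Pax7 and at 0.264 Pax3 with 55.3 Pax7, whereas young 1 lies low on both axes of the Myf plot.

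Myf5 was the gene missing from young 1, where 1 UMI was counted in 8674 cells (0.00749 CPM, 95% Poisson interval 0.00019 to 0.0417). It stood at 34.4 CPM in young 2, 33.3 in young 3, 11.96 in old 1, 55.7 in old 2 and 29.7 in old 3. The other 5 populations spanned 4.66-fold, and the counting intervals of young 2 and young 3 overlapped.

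Myf6 had few UMIs everywhere, between 44 in old 1 and 1392 in old 3. It stood at 0.659 CPM in young 1, 2.30 in young 2 and 0.874 in young 3, and at 0.291, 1.70 and 7.62 CPM in old 1, old 2 and old 3. In young 1, where Myf5 was missing, Myf6 ranked 5th of 6 at 0.387 times the median of the other 5. Pax7 and Pax3 also ranked 5th of 6 there, at 9.93 and 12.6 CPM, as did Myod1 at 50.8 CPM and Myog at 28.4 CPM. None of the other 3 genes ranked above 5th where Myf5 was missing. Young 1 was the lowest of 6 for 33.8% and the highest for 7.22% of the 7978 genes with a mean of 10 CPM or more.

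The neighbourhood of each missing gene was detected. Within 1 Mb of Pax7, 15 of 30 other annotated genes reached 1 CPM in any population, and 14 of these did so in young 3, with a summed level of 1340 CPM against 1192 to 1454 CPM in the other populations. Within 1 Mb of Myf5, 3 of 7 other genes reached 1 CPM in young 1, as in 4 of the other 5 populations. Their summed level there, 61.2 CPM, was the lowest of the 6, against 64.5 to 114.7 CPM elsewhere. An entry named LACZ in the shorter gene list held 2868 UMIs in young 1 (21.5 CPM), the population without Myf5, and 0 in old 1, the other population counted on that list. How that entry relates to the Myf5 count was not tested.

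Lists of related genes were read in young 3 and young 1. In young 3, 0 of 26 commitment and differentiation genes with a mean of 10 CPM or more had their highest level, and 7 had their lowest (26.9%, against 9.75% of all genes). Their median log2 ratio to the median of the other 5 populations was -2.27, against 0.17 over all 7978 genes. Of 11 specification factors in the list of genes upstream of or beside the 4, 3 were highest in young 3 (27.3%, against 25.3% of all genes), among them the transcriptional co-factors Eya1 (118 CPM) and Eya3 (25.8 CPM). The median ratio of that list was -0.32, below the 0.17 of all genes. Of 22 satellite cell and Pax target genes, 6 were lowest (27.3%) and 3 highest (13.6%) in young 3, with a median of -0.24. In young 1, 8 of these 22 were lowest (36.4%) and 2 highest (9.09%), with a median of -0.57. Of 11 bHLH partners and inhibitors, 4 were highest in young 3 (36.4%), with a median of 0.19. In young 1, 0 of 11 specification factors were highest and 5 were lowest, and 7 of 11 bHLH partners and inhibitors were lowest (45.5% and 63.6%, against 33.8% of all genes). Of the 26 commitment and differentiation genes 0 were lowest in young 1, with a median log2 ratio of -1.12, against -0.25 over all genes. Of 15 S-phase genes 8 were lowest there (53.3%). Of 16 G2 and mitosis genes 6 were (37.5%), close to the 33.8% of all genes. The medians of these 2 lists were -0.62 and -0.67. In young 3, 5 of 15 S-phase and 7 of 16 G2 and mitosis genes were highest, with medians of 0.54 and 0.60. These are single populations, so no test was made.

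The comparison that the study design names is old against young. The old and young levels of all 4 genes overlapped. This is not read as a result about these genes, since the share of all genes that overlap is not given here. Pax7 was 22.8 ± 10.6 CPM (SD, n = 3) in old and 21.7 ± 29.45 in young populations, and Pax3 was 19.9 ± 5.83 against 21.5 ± 26.8. Myf5 was 32.4 ± 21.99 in old and 22.6 ± 19.5 CPM in young populations, and Myf6 was 3.20 ± 3.89 against 1.28 ± 0.893. For each gene the difference of the means was smaller than the spread within at least 1 group. In edgeR's quasi-likelihood fit over 14512 genes, with the gene list as a term, the log2 fold change of old over young was 0.0023 for Pax7 (SE 1.73) and -0.12 for Pax3 (SE 1.43). It was 1.88 for Myf5 (SE 1.75) and 0.68 for Myf6 (SE 1.11).

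These values are a description, since the 4 genes were chosen on the same samples. None of the 119 tested genes of the 6 lists was called by edgeR, against a background of 0.00689% of genes, which is 1 gene of the 14512 at an adjusted p under 0.05. Of the list genes 2 had an unadjusted p under 0.05, as did 3.53% of all genes, and DESeq2 called 1, where it called 1.78% of all genes with an adjusted p. Standard errors above 1 on the log2 scale leave room for differences of several fold in either direction. Within the shorter gene list the comparison is young 1 against old 1 alone, so it has no replicate. Without young 3, the log2 fold change of Pax3 turned from -0.12 to 3.445 and that of Pax7 to -0.59. Leaving out young 2 moved that of Pax7 further, as given in the section on processing. Without young 1, which held 1 Myf5 UMI, the log2 fold change of Myf5 went from 1.88 to 0.38. Without old 1 it was also 0.38, a match that the design fixes. With either left out, the gene-list term takes up the other. Both fits then compare young 2 and young 3 with old 2 and old 3, so they are not separate checks.

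Levels per population do not say how many cells hold the RNA, so the UMIs of each cell were drawn down to 5000 and the share of cells with at least 1 UMI was counted. Pax7 was detected in 5.40% of cells in young 1, 23.4% in young 2 and 0.0094% in young 3, and in 5.20%, 9.88% and 15.2% in old 1, old 2 and old 3. Pax3 was detected in 6.35%, 0.150% and 21.3% of young cells and in 12.1%, 7.52% and 8.45% of old cells, in the same order. Myf5 was detected in 0.0118%, 13.6% and 14.3% of young cells and in 4.27%, 21.4% and 13.3% of old cells. Myf6 was detected in 0.213%, 1.00% and 0.414% of young cells and in 0.101%, 0.811% and 2.89% of old cells. The order of populations was that of the CPM for Pax3 and Myf6. Young 1 and old 1 changed places for Pax7, and young 2 and young 3 for Myf5, each time with overlapping binomial intervals.

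At full depth the highest shares were 54.2% for Pax7 in young 2, 51.3% for Pax3 in young 3, 53.8% for Myf5 in old 2 and 6.75% for Myf6 in old 3. Median depths of the populations, between 13001 and 19951 UMIs, move these unthinned values. The 5 Pax7 UMIs of young 3 lay in 5 cells (0.0464%) and the 1 Myf5 UMI of young 1 in 1 cell (0.0115%). No cells were set apart as a type that should lack these genes, so a background share from free RNA was not read within a library.

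The RNA was not spread evenly over cells for every gene. An even spread of the 88 Myf6 UMIs of young 1 over its cells would reach 1.01% of them, and 0.438% had one, with up to 16 UMIs in 1 cell. In old 3, 6.75% of cells held Myf6 against 10.4% under an even spread, with up to 15 UMIs in 1 cell. For Myf5 in old 1 the values were 9.87% against 16.1%, and for Pax7 in old 1 they were 12.1% against 16.5%. For Pax7 in young 1 (12.7% against 13.96%) and Pax3 in young 1 (16.6% against 17.3%) the share lay closer to the even value.

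**Figure D3:**
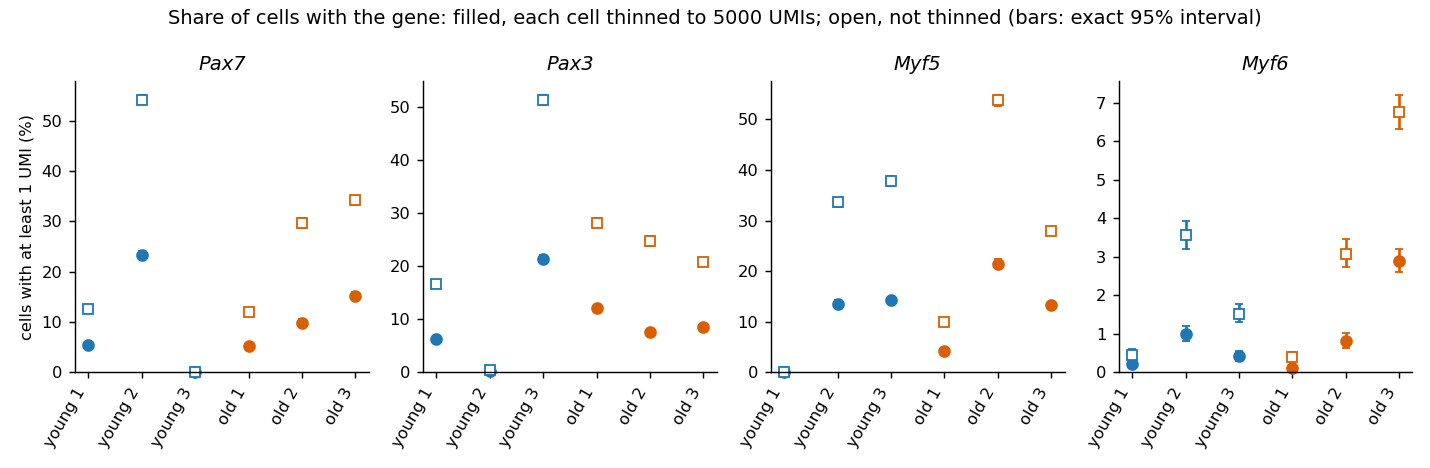
Percentage of cells with at least 1 UMI of each gene in each population, with each cell thinned to 5000 UMIs (filled circles) and unthinned (open squares), and exact 95% binomial intervals, which cover counting error only. Thinned shares peak at 23.4% for Pax7 in young 2, 21.3% for Pax3 in young 3, 21.4% for Myf5 in old 2 and 2.89% for Myf6 in old 3.

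At 5000 UMIs, between 65.3% and 88.35% of the cells of a population held none of the 4 genes, and no cell of any population held all 4. Cells with a Pax gene and a Myf gene together made up 3.28% of young 2, 3.25% (345 cells) of young 3, 0.979% of old 1, 3.78% of old 2 and 3.91% of old 3, and 0 of the 8444 cells of young 1. That 0 allows up to 0.0355% of cells with UMIs of both at this depth and says nothing of undetected RNA, and young 1 had 1 Myf5-positive and 18 Myf6-positive cells in all. Co-detection was set against the number expected if the genes were detected independently within a population, and expressed as a log2 odds ratio, which is 0 at independence. A pair was read only where at least 50 cells were positive for each gene.

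Pax7 and Pax3 were found together more often than independence gives in some populations and less often in others. Both were detected in 27 cells of young 1 where 28.95 were expected, in 37 of old 1 where 62.1 were expected, in 80 of old 2 where 63.2 were expected and in 199 of old 3 where 156.9 were expected. The log2 odds ratio was -0.09, -0.84, 0.42 and 0.46 in that order, with a mean of -0.01 ± 0.61 (SD, n = 4). It was below independence in young 1 and old 1 and above it in old 2 and old 3. The mean turned positive at other depths, to 0.38 with cells thinned to 2500 UMIs and 0.26 without thinning.

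Pax7 and Myf5, the factor that Pax7 is known to switch on, had their highest odds ratio in old 1. There 61 cells held both where 22.0 were expected (log2 odds ratio 1.75). Elsewhere 327 cells held both against 337.9 expected in young 2 (-0.07), 198 against 180.2 in old 2 (0.20) and 296 against 246.7 in old 3 (0.37). Pax3 and Myf5 were found together in 337 cells against 324.3 expected in young 3 (0.08), 35 against 51.0 in old 1 (-0.61), 141 against 137.1 in old 2 (0.06) and 169 against 136.7 in old 3 (0.40). In old 1, Myf5 was thus found with Pax7 above independence and with Pax3 below it.

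Myf6 was found with Pax7 in 19 cells against 25.04 expected in young 2 (-0.48), 6 against 6.82 in old 2 (-0.10) and 36 against 53.7 in old 3 (-0.66), with no test made. With Myf5 it was found in 27 cells against 14.5 expected in young 2 (1.14), 15 against 14.8 in old 2 (0.06) and 51 against 46.8 in old 3 (0.16).

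**Figure D4:**
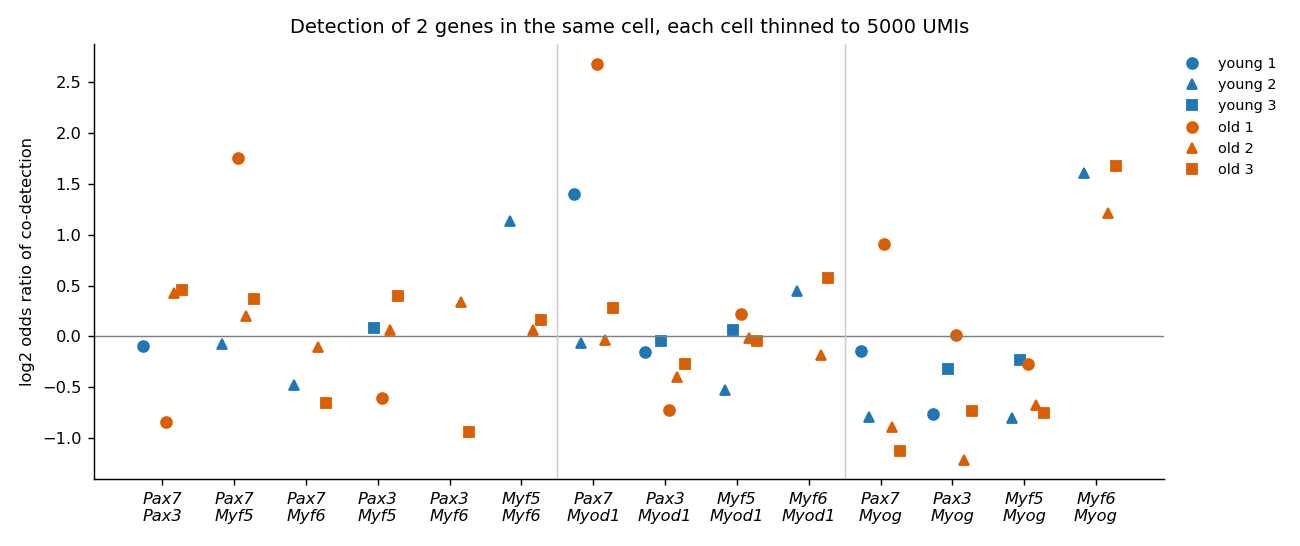
Log2 odds ratio of finding 2 genes in the same cell, cells thinned to 5000 UMIs, for pairs of the 4 genes and for each with Myod1 and Myog. Each symbol is a population (circle, triangle and square for replicates 1, 2 and 3; blue young, orange old) and 0 is independence; Pax7 with Pax3 has points on both sides of 0, from -0.84 to 0.46.

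Myod1, the factor of committed myoblasts, accompanied Pax7 in 2 of the 5 populations that could be read. In young 1 and old 1, where few cells held Myod1, it was detected in 35.3% and 50.7% of Pax7-positive cells against 17.1% and 13.8% of Pax7-negative cells. In young 2, old 2 and old 3 the shares were 78.6% against 79.35%, 74.2% against 74.6% and 93.2% against 91.9%. Myog was detected less often in Pax7-positive cells in 4 of these 5 populations, for example in 30.2% against 48.6% in old 3. In young 1 the gap was small: 442 of 456 Pax7-positive cells and 8151 of all 8444 cells held no Myog UMI. Old 1 was the exception to the 4, with Myog in 1.17% against 0.671%. Cells with Myf6 were the reverse: Myog was found in 43.0% of them against 19.95% of other cells in young 2, 27.5% against 14.3% in old 2 and 72.4% against 45.0% in old 3. The other 3 populations had fewer than 50 Myf6-positive cells. There Myog was found in 11 of 18 cells of young 1 (61.1% against 3.35% of the others), 4 of 44 cells of young 3 (9.09% against 5.28%) and 0 of 10 cells of old 1 (against 0.697%).

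The other genes of the cells that held each factor were compared with those of the cells that did not. UMIs were summed over positive and over negative cells of a population at 5000 UMIs per cell, and edgeR's quasi-likelihood test was run with the population as a block, with Benjamini-Hochberg adjustment over all genes tested. A negative cell is one in which no UMI was counted, so negative cells include cells that hold the RNA undetected. Populations with at least 100 positive cells entered.

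Pax7-positive cells, 6161 against 43531 negative cells in all populations but young 3, held less RNA of contractile genes. Of the 28 commitment and differentiation genes tested, 15 were lower and 0 higher, with a median log2 fold change of -1.57 against -0.01 over all 12336 genes. The background was 9.48% of genes called, with 7.08% lower and 2.4% higher (873 and 296 genes). Mylpf, a fast myosin light chain, stood in positive and negative cells at 181 and 522 CPM in young 1, 269 and 1296 in young 2, 14.8 and 59.4 in old 1, 114 and 596 in old 2, and 1368 and 6043 in old 3. It was lower in positive cells of all 5 populations, with a log2 fold change of -2.20 (SE 0.10, edgeR adjusted p = 1.1e-05). Of the 15 genes, 3 stood higher in positive cells of old 1: Mymk at 7.78 against 5.18 CPM, Tnnt3 at 9.72 against 6.76 and Tnni2 at 4.28 against 2.49 CPM. Ckm, also called, had 3 UMIs in positive cells of young 1 and 0 in those of old 1, so its direction there cannot be read.

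The 6 genes of average log2 CPM above 5 with the largest decreases and 1 direction in every population were Tnnc2 (-3.01), Myl4 (-2.94), Acta1 (-2.74), Myh3 (-2.73), Actc1 (-2.70) and Tnnc1 (-2.33). These encode troponin C, actin and myosin subunits of the sarcomere. Myl4 stood at 102 CPM in positive and 847 CPM in negative cells of old 3, and at 2.72 and 13.6 CPM in old 1. Myog itself had a log2 fold change of -1.72 (SE 0.38) that missed the threshold (edgeR adjusted p = 0.0699). Myod1 stood at 0.33 (SE 0.42, edgeR adjusted p = 0.694), positive in young 1 and old 1 and negative in the other 3.

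Of 26 satellite cell and Pax target genes, 4 were higher in Pax7-positive cells and 0 lower. These were Met (0.40), the receptor of hepatocyte growth factor, the Notch receptors Notch1 (0.41) and Notch2 (0.23), and the Notch target Hes1 (0.31, edgeR adjusted p = 0.0267). Hes1 stood in positive and negative cells at 61.0 and 52.9 CPM in young 1, 89.7 and 75.3 in young 2, 219 and 134 in old 1, 105 and 71.4 in old 2, and 135 and 103 in old 3, higher in all 5. Of 13 bHLH partners and inhibitors, 3 were higher: Tcf4 (0.29) and Tcf12 (0.36), which are E proteins, the partners of the Myf factors on DNA, and the repressor Snai2 (0.50). Of 15 specification factors, Mef2c, a co-factor of differentiation, was lower (-0.93, SE 0.20, edgeR adjusted p = 0.0469). That call was lost with other normalization factors (adjusted p = 0.0558), without a filter (0.0613), at 2500 and 10000 UMIs (0.0572 and 0.121), with matched negative cells (0.177) and without young 1, young 2, old 1 or old 2 (0.0744 to 0.128). Its log2 fold change stayed between -0.86 and -1.09 in these fits. None of the 16 S-phase genes and none of the 16 G2 and mitosis genes was called by edgeR or DESeq2, with 1 and 0 at an unadjusted p under 0.05.

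Vav3, a guanine nucleotide exchange factor, led the increases at 0.77 (SE 0.12, edgeR adjusted p = 0.0130). The 5 next were Pde4d (0.59), Tcf7l2 (0.58), Wipf1 (0.52), Slc38a6 (0.50) and Adamts6 (0.49).

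A property of the RNA moved with these calls. Genes that span more than 100 kb were 15.1% of those tested but 59.5% of those higher and 3.67% of those lower, and the share of a cell's UMIs from such genes was higher in Pax7-positive cells in 5 of 5 populations (5.17% against 4.09% in young 1). When negative cells were matched to positive ones on this share of UMIs from long genes, an alternative chosen after the data were seen, 84 of 11668 genes were called (0.72%, with 0.0343% higher and 0.686% lower), all of them among the 1169. Under the matching, 12 commitment and differentiation genes were lower, with a median of -1.54, and Mylpf kept a log2 fold change of -2.21. Of the satellite cell list Hes1 remained (0.36, edgeR adjusted p = 0.0275), and none of the bHLH list or of the 6 named higher genes passed. Of their log2 fold changes, that of Snai2 stayed near the value against all negative cells (0.46), and the others fell to differing degrees. Vav3 stood at 0.59, Tcf7l2 at 0.42 and Wipf1 at 0.39 (edgeR adjusted p = 0.0503). Pde4d stood at 0.31, Slc38a6 at 0.29, Adamts6 at 0.26, Tcf4 at 0.10 and Tcf12 at 0.17, and of the satellite cell list Met stood at 0.30, Notch1 at 0.32 and Notch2 at 0.14. The mitochondrial share was higher in positive cells of young 1 (3.08% against 2.34%) and old 1 (2.99% against 2.41%) and not in the other 3, and its part in the result was not tested.

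In cells with no Myog UMI, 2 of 25 commitment and differentiation genes were lower, with a median of -0.19, where 6.71% of all genes were lower. The count of lower genes in that list was between 8 and 18 when 1 population was left out: 12 without young 1, 8 without young 2, 18 without old 1, 8 without old 2 and 8 without old 3. All calls together numbered 207, 402, 1515, 153 and 185 in that order. The satellite cell list had 1, 1, 7, 0 and 0 genes higher, and the bHLH list 0, 2, 3, 0 and 1. The median log2 fold change of the satellite cell list was 0.23, 0.28, 0.10, 0.25 and 0.25 in these fits, against 0.24 with all 5 populations. That of the commitment and differentiation list was -1.63, -1.38, -1.94, -1.58 and -1.55, against -1.57. For the bHLH list it was 0.09, 0.20, 0.06, 0.18 and 0.21, against 0.15.

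Pax3-positive cells, 5670 against 44005 negative cells in all populations but young 2, also held less contractile RNA. Of 28 commitment and differentiation genes, 22 were lower and 0 higher, with a median of -1.39. The background was 23.2% of 12232 genes called, with 15.8% lower and 7.43% higher. The 6 named decreases were Myl4 (-2.69), Myl1 (-2.39), Acta1 (-2.37), Actc1 (-2.34), Myh3 (-2.33) and Tnnc2 (-2.28). Myl4 stood in positive and negative cells at 13.8 and 137 CPM in young 1, 4.02 and 35.2 in young 3, 2.01 and 14.5 in old 1, 17.8 and 109.8 in old 2, and 157 and 787 in old 3. The population without Pax7 thus had the same direction as the other 4. Myog was lower at -1.44 (SE 0.20, edgeR adjusted p = 0.0108) and Myod1 at -0.39 (SE 0.088, edgeR adjusted p = 0.0284).

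The specification list had 2 of 15 genes higher in Pax3-positive cells, Eya1 and Eya3, where 7.43% of all genes were higher and 15.8% lower. Its median log2 fold change was -0.072, against -0.011 over all genes. Eya1, a transcriptional co-factor, stood at 38.1 and 28.0 CPM in young 1, 149 and 111 in young 3, 50.4 and 31.0 in old 1, 64.1 and 42.9 in old 2, and 16.8 and 11.2 in old 3. It was higher in positive cells of all 5 (0.42, SE 0.053, edgeR adjusted p = 7.66e-07). Of 25 satellite cell and Pax target genes, Notch3 (0.29), Megf10 (0.28) and Numb (0.30) were higher and 0 lower. The median of that list was -0.008, near the -0.011 of all genes, and 12 of the 25 had a positive fold change. Notch3 stood at 0.747 against 2.43 CPM in young 1, but with 2 UMIs in positive cells its direction there cannot be read. Of 13 bHLH genes, with a list median of 0.025, Tcf4 (0.18) and Tcf12 (0.16) were called higher. The inhibitors Id1 (-0.11) and Id3 (-0.09) were called lower in the fit, but each stood lower in only 2 of 5 populations: in old 3, Id1 stood at 1265 against 1198 CPM and Id3 at 2676 against 2381 CPM. DESeq2 did not call Id3 (adjusted p = 0.0954). The fit applies normalization factors that these CPM do not, and their part in such small values was not tested.

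Calls among cycling genes depended on the setting. Of 16 S-phase genes 7 were lower, with a median of -0.12, but this count was 2 without young 1, 3 without young 3, 2 without old 1, 1 at 2500 UMIs and 2 with DESeq2. The median of the list stayed between -0.10 and -0.12 in those fits. The count was 7 with other normalization factors, 6 at 10000 UMIs, 7 without old 2 and 6 without old 3. It was 10 without a filter and 10 in cells with no Myog UMI, with medians of -0.18 and -0.16. Populations are counted here by CPM, which lack the normalization factors of the fit, and the part of those factors was not tested. Pcna and Rrm2 were called but each stood lower in only 3 of 5 populations. In old 3, Pcna stood at 153.8 against 149.5 CPM and Rrm2 at 203.5 against 189.9 CPM. Of 16 G2 and mitosis genes, Cenpe (0.24), Cenpf (0.28) and Hmmr (0.26) were higher. Cdk1 was called lower (-0.17) but stood lower in 2 of 5 populations, with 117 against 97.3 CPM in old 2, and DESeq2 did not call it (adjusted p = 0.0933). The other named increases were Magi2 (0.47), Edil3 (0.46), Ano3 (0.45), Gpc6 (0.43) and Nfia (0.41), beside Eya1.

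Long genes again made up more of the higher genes (58.8% above 100 kb) than of the lower ones (2.28%), and their UMI share was higher in positive cells in 5 of 5 populations. The mitochondrial share was higher in positive cells in 4 of 5 populations (2.62% against 2.36% in young 1), and its part was not tested. With matched negative cells, 242 of 11691 genes were called (2.07%, with 0.265% higher and 1.8% lower), of which 207 were among the 2840. In that fit 15 commitment and differentiation genes were lower, with a median of -1.34, and Eya1 remained at 0.23 (edgeR adjusted p = 0.0107), with Edil3 at 0.22 and Ano3 at 0.21. The other named increases, Magi2 (0.13), Gpc6 (0.15) and Nfia (0.20), were not called (edgeR adjusted p = 0.438, 0.222 and 0.0511). Eya3 missed the threshold (edgeR adjusted p = 0.726). The satellite cell list had 0 genes higher, with Notch3, Megf10 and Numb at edgeR adjusted p = 0.550, 0.538 and 0.857, and 1 lower, Ncam1 (-0.23). The S-phase list had 0 calls by edgeR (2 at an unadjusted p under 0.05, 2 called by DESeq2 with all negative cells) and the G2 and mitosis list 5, all higher, while Tcf4 (-0.04), Tcf12 (-0.01), Id3 (0.03) and Cdk1 (0.03) changed sign. Myog then stood at -1.40 (SE 0.20, edgeR adjusted p = 0.0699) and Myod1 at -0.28 (edgeR adjusted p = 0.380), so the size of the Myog difference was close to that against all negative cells. In cells with no Myog UMI, 7 of 24 commitment and differentiation genes were lower, with a median of -0.28, where 14.2% of all genes were lower.

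Myf5-positive cells, 6828 against 45053 negative cells in all populations but young 1, differed at few genes. Of 12121 genes, 17 were called (0.14%), 15 lower (0.124%) and 2 higher (0.0165%), and 943 had an unadjusted p under 0.05. Of 28 commitment and differentiation genes 4 were lower and 0 higher: Myog (-1.54, SE 0.084, edgeR adjusted p = 0.000596), the fusion peptide Mymx (-1.79), muscle creatine kinase Ckm (-1.62) and troponin Tnnt3 (-0.89). Myog stood in positive and negative cells at 120 and 416 CPM in young 2, 21.7 and 50.1 in young 3, 1.42 and 7.62 in old 1, 75.5 and 204 in old 2, and 407 and 1080 in old 3, lower in all 5. Outside the lists, Cacng1 was also lower in all 5 (-0.48, SE 0.060, edgeR adjusted p = 0.0146). Positive cells of old 1 held 0 UMIs of Mymx and of Ckm, and those of young 3 held 2 of Ckm. Those directions cannot be read. Tnnt3 stood at 6.63 against 6.92 CPM in old 1, with 14 UMIs in positive cells.

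The median over the commitment list was -0.90, 21 of its 28 genes had an unadjusted p under 0.05 and DESeq2 called 11. The 4 calls became 9 without old 1, 2 without old 3, 14 at 2500 UMIs and 1 at 10000 UMIs, with a list median of -0.93, -0.89, -0.88 and -0.92. No gene of the other 5 lists was called by edgeR, with 0 to 5 a list at an unadjusted p under 0.05, and DESeq2 called 1 bHLH gene. Both higher genes, Pdgfd (0.47) and Ebf1 (0.44), span more than 100 kb. Ebf1, a transcription factor of B cells and mesenchyme, stood at 318 and 216 CPM in young 2 and at 4.77 and 3.72 CPM in old 3. With matched negative cells 21 genes were called (0.176%, with 0.0168% higher and 0.159% lower), 15 of them among the 17. Ebf1 passed there at 0.39 (edgeR adjusted p = 0.0434) and Pdgfd did not (0.39, edgeR adjusted p = 0.0588). Neither passed at 10000 UMIs or without young 2, young 3, old 2 or old 3, while Pdgfd kept values of 0.42 to 0.51 and Ebf1 of 0.36 to 0.44. Leaving out old 1 raised the calls from 17 to 417, and leaving out old 2 or old 3 lowered them to 6 or 3. In cells with no Myog UMI 0 genes were called by edgeR, with 786 at an unadjusted p under 0.05, and the median of the commitment list was 0.01.

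**Figure D5:**
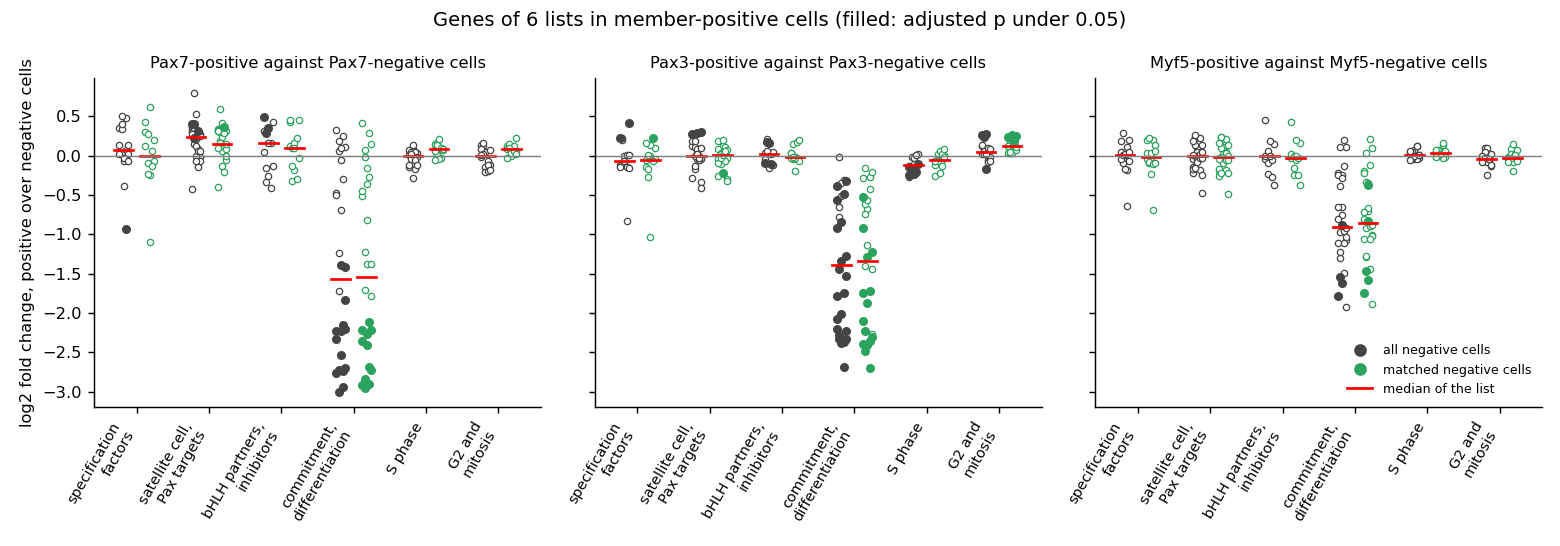
Log2 fold change of each gene of the 6 lists in cells positive against negative for Pax7, Pax3 and Myf5, against all negative cells (grey) and against negative cells matched on the UMI share of long genes (green). Filled points have an edgeR adjusted p under 0.05 and the red bar is the list median; the commitment and differentiation list lies lowest in all 3, with medians of -1.57, -1.39 and -0.90.

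The 4 genes were read in these splits as a description. In Pax7-positive cells, Pax3 stood at -0.04 (SE 0.23), Myf5 at 0.32 (SE 0.26) and Myf6 at -0.72 (SE 0.29) on the log2 scale. In Pax3-positive cells, Pax7 stood at 0.00 (SE 0.14), Myf5 at -0.03 (SE 0.074) and Myf6 at -0.70 (SE 0.30). Myf6 was lower in positive cells of old 3 (3.36 against 7.31 CPM). It was higher in those of young 3 (1.07 against 0.774) and old 2 (1.90 against 1.67). Positive cells of young 1 and old 1 held 0 and 1 Myf6 UMIs. In Myf5-positive cells, Pax7 stood at 0.28 (SE 0.24), Pax3 at 0.03 (SE 0.17) and Myf6 at 0.49 (SE 0.23). Whether positive and negative cells differed otherwise in old than in young populations was tested for Pax7 and Myf5, and edgeR called 0 genes for each, with 167 and 245 at an unadjusted p under 0.05. For Pax3 this was not tested.

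Myf6-positive cells were numerous enough in young 2 (107 cells) and old 3 (352 cells) only, so their values are given with no test. All 27 commitment and differentiation genes of at least 10 CPM stood higher in Myf6-positive cells of young 2, with a median log2 ratio of 2.82, and 26 of 27 did in old 3, with a median of 1.68. Over all genes 42.4% and 35.5% stood higher. Mylpf stood at 8438 against 981 CPM in young 2 and at 20180 against 4889 CPM in old 3, and the fusion gene Mymk at 277 against 29.7 and at 683 against 192 CPM. Myog stood at 1284 against 367 and at 1908 against 963 CPM. S-phase and G2 and mitosis genes stood mostly lower: 3 of 14 and 3 of 16 were above 0 in young 2, and 0 of 14 and 0 of 16 in old 3. The mitochondrial share was higher in Myf6-positive cells of both (3.70% against 3.33%, and 3.15% against 2.66%), and its part was not tested. Pax7 stood at 41.7 against 57.4 CPM in young 2 and at 23.6 against 35.7 CPM in old 3.

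Across the 6 populations, the genes whose log2(CPM + 1) most resembled each factor were found by Pearson's r among genes with a mean of 10 CPM or more. With 6 points and 7977 genes, r is given only to rank them. Dmpk (r = 0.995), Itgb6 (0.995) and Ptk2b (0.975) were most like Pax7. Itgb6, an integrin chain, stood at 11.9, 37.9 and 2.20 CPM in young 1 to 3 and at 16.4, 23.3 and 23.9 CPM in old 1 to 3. S100a10 (0.995), Pdk3 (0.973) and Arf2 (0.971) were most like Pax3, and Ndufa9 (0.992), Mtr (0.991) and Tbck (0.991) most like Myf5. C1qtnf3 (0.991), Rgmb (0.978) and Mymx (0.972) were most like Myf6, and Mymx stood at 93.7 CPM in old 3 against at most 22.0 CPM in the other 5.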

How the data were processed

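The deposited matrices hold raw UMI counts per gene and cell barcode, as the file headers and whole-number values show; per the submitters' processing notes they were made with Cell Ranger on the mm10 (GRCm38) genome, and Seurat is also named. Per the file headers, young 1 and old 1 were counted with Cell Ranger 7.0.0 on 21849 features and the other 4 populations with 7.2.0 on 32285, and the 21485 gene identifiers that both lists hold were kept. Whether intron reads were counted is not given in the sources used here.

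Barcodes with at least 1000 UMIs, at least 500 genes and under 15% mitochondrial UMIs were kept. Doublets were not called. CPM are sums over the kept cells, with Poisson intervals. CPM in positive and negative cells are plain shares of the summed UMIs, without the normalization factors of the fits. For shares, co-detection and positive against negative cells, each cell was thinned once to 5000 UMIs, which left out between 147 and 362 shallower cells of a population. Shares have exact (Clopper-Pearson) 95% intervals, which cover counting error only.

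Summed counts were tested with edgeR 4.0.16 (R 4.3.3, TMM, low-count filter, quasi-likelihood, Benjamini-Hochberg adjusted p under 0.05). Old against young had the gene list as a term; positive against negative cells had the population as a block. DESeq2 1.42.0, other normalization factors, no filter, other depths, removal of the deepest 8% of cells, cells without Myog and each population left out were the alternatives. Added later were negative cells drawn to match positive ones over 20 bins of the UMI share from genes above 100 kb. The fits were first run on simulated counts with preset spreads, as a check of the code. The spread between these populations was not simulated, so that run does not measure sensitivity here. Gene positions and sequences came from GENCODE M21 on GRCm38.

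The 4 genes, the gene lists and the tests were chosen with earlier results of these data known. Named genes were the 4 genes, list genes that passed, up to 6 genes a direction of average log2 CPM above 5 with the largest change and 1 direction in every population, and the 3 most alike genes. Pdgfd, Ebf1 and Cacng1 were named under the same rule for Myf5-positive cells. Not every listed gene is reported here.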

Additional observations from a re-analysis of the deposited data

Results flagged for a closer look

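The shorter gene list of young 1 and old 1 holds an entry named LACZ that is not among the genes compared. It had 2868 UMIs in young 1, in 2257 cells (26.0%), and 0 in old 1, counted on the same list. Young 1 is the population with 1 Myf5 UMI, where old 1 had 1811. At 5000 UMIs, LACZ was found with Pax7 in 58 cells (48.1 expected), with Pax3 in 79 (56.6 expected) and with Myf6 in 0 (1.90 expected). What the entry stands for is not given in the sources used here, and its relation to the Myf5 count was not tested.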

How the results depend on the processing

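Counts of called genes depended on the setting. For old against young, 1 call became 270 with DESeq2, 0 without the gene-list term (edgeR, 512 at an unadjusted p under 0.05 with the term), 0 to 3 without 1 population, and 1 with a replicate block. Same-numbered populations deviated from their group means with r = 0.38, 0.22 and -0.08. The labels do not say whether the numbers pair populations, and these values cannot decide it. Young 1 correlated best with its own number, but young 2 and young 3 did not. Young 1 and old 1 also share the shorter gene list. For Pax7, 1169 calls became 741 at 2500 UMIs, 84 with matched negative cells (added after the data were seen) and 153 to 1515 without 1 population. For Pax3, 2840 became 1767 with DESeq2, 1317 at 2500 UMIs and 242 when matched. For Myf5, 17 became 30 with DESeq2, 57 without a filter, 53 at 2500 UMIs, 10 at 10000 UMIs, 27 without the deepest 8% of cells, 0 in cells without Myog, and 3 to 417 without 1 population. The causes were not tested.

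Mean shares of cells in young and old populations without thinning were 22.3% and 25.3% for Pax7 (9.60% and 10.1% thinned), 22.8% and 24.56% for Pax3 (9.28% and 9.34%), 23.8% and 30.5% for Myf5 (9.29% and 12.99%) and 1.84% and 3.41% for Myf6 (0.544% and 1.27%). At 10000 UMIs the old shares were 18.2% (Pax7), 17.15% (Pax3) and 22.6% (Myf5), and the young share of Myf6 was 1.07%. At 2500 UMIs the old share of Pax3 was 4.80%, and the mean log2 odds ratio of Pax7 with Myf6 was -0.90.

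Tnni2 (-1.42) and Mef2c (-0.93) in Pax7-positive cells and Tnnt3 (-0.89) in Myf5-positive cells turned sign in cells without Myog. Signs that turned thus belonged to large values as well as to values near 0. For old against young these were Pax7 (-0.0027 with DESeq2, -0.000304 without a filter, -0.59 without young 3, -0.24 without old 3), Pax3 (1.25 with the replicate block, 3.445 without young 3, 0.10 without old 2) and Myf6 (-0.10 without young 3, -0.59 without old 3). With the sign kept, Pax7 stood at 4.74 and Pax3 at -0.65 without young 2, and Myf6 at 1.64 without old 1. In Pax7-positive cells they were Pax3 (0.31 at 2500 UMIs, 0.041 at 10000 UMIs, 0.20 without old 1; -0.28 with the sign kept without old 3), Myod1 (-0.052 without old 1; 0.52 with the sign kept without old 3) and, in cells without Myog, Myf6 (0.22), Mef2c (0.12) and Tnni2 (0.15).

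In Pax3-positive cells they were Pax7 (0.016 with other factors, 0.34 at 2500 UMIs, 0.030 at 10000 UMIs, 0.01 without young 1, 0.21 without old 1), Myf5 (0.052 at 2500 UMIs, 0.044 without old 1; -0.11 with the sign kept without old 3) and Cdc6 (0.085 at 2500 UMIs). Tcf4 (-0.038), Tcf12 (-0.014), Id3 (0.031) and Cdk1 (0.028) turned when matched, Ncam1 (0.042) in cells without Myog, and Cdc20 without a filter (-0.014), without Myog (-0.014) and without old 2 (-0.015; 0.11 with the sign kept without young 3). In Myf5-positive cells they were Pax3 (-0.011 without a filter, -0.00527 without the deepest cells, -0.047 without Myog, -0.054 when matched, -0.024 without young 2, -0.056 without old 3) and, without Myog, Tnnt3 (0.056), Neb (0.029) and Cacng1 (0.066).

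Depth limits the Myf6 values, with 44 UMIs in old 1, and each population is 1 library.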
